A study of Rattus norvegicus with 14 samples.

Results

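The 10 genes described here mark macrophages and other antigen-presenting cells of rat skin. They are Cd74, the MHC class II genes RT1-Da, RT1-Ba and RT1-Bb, the complement C1q genes C1qa, C1qb and C1qc, and the macrophage genes Cd163, Mrc1 and Cd68. They were found on the array by their RefSeq accessions, which led to 11 probes. Of these genes, 9 of 10 passed a filter that asked for a signal well above background on at least 6 arrays, within the 18611 genes tested. RT1-Ba did not pass it. The skin came from male CD hairless rats of 1 supplier, with no allele or transgene named. Of the animals, 6 had been exposed at 94 GHz for 3 hours a day on 3 days a week over 5.5 months, and 8 had been sham-exposed. Each animal gave 1 array, made from 0.1 µg of RNA of a 15 to 20 mg biopsy. Rats were caged in pairs, with the cage partners and the animals' age not given in the sources used here. The tests therefore treat each animal as independent.

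MHC class II molecules are pairs of an alpha and a beta chain that present peptides from outside the cell to helper T cells. The invariant chain, encoded by Cd74, holds their groove closed until they reach the endosome. In skin the carriers are Langerhans cells of the epidermis and the macrophages and dendritic cells of the dermis. Tissue macrophages are also a main source of C1q, the first component of the classical complement pathway, and resident dermal macrophages carry the scavenger receptor Cd163 and the mannose receptor Mrc1. In whole skin, fewer cells of a type and less RNA per cell cannot be told apart.

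The 14 arrays came from 4 slides that were scanned separately. Slide 1 held 2 sham animals and slide 2 held 2 exposed animals, so on those slides group and slide cannot be told apart. On slide 3 were 3 animals of either group, and on slide 4 were 1 exposed and 3 sham animals. The 75th percentile of signal, by which each array was scaled, ran from 799.5 to 1946 scanner units. Sums of linear levels over marker lists, in multiples of that percentile, were 340 to 447 in exposed and 366 to 519 in sham animals for the 4 keratinocyte genes measured, and 322 to 525 and 378 to 648 for the 6 fibroblast genes. The 5 skeletal muscle genes summed to 0.613 to 77.4 in exposed and 0.415 to 31.7 in sham animals, and the 5 hair follicle genes to 22.7 to 181 and 14.5 to 123.

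MHC class II genes are known for a shared promoter layout, in which a set of boxes named W, X and Y precedes the start of transcription. The 130 bases before the start of 4 class II genes are shown because they carry the Y box letters, and the array readings of these genes are compared further on. They are RefSeq promoter sequences of build GRCr8, read along each gene's own strand, with capitals for the letters CTGATTGG and ACNGATG. RT1-Da lies at chr20:4515285-4515414 on the plus strand, RT1-Bb at chr20:4604119-4604248 on the minus strand, RT1-Ba at chr20:4576927-4577056 on the plus strand and RT1-Db1, the gene of the beta chain that pairs with that of RT1-Da, at chr20:4560163-4560292 on the minus strand.
RT1-Da: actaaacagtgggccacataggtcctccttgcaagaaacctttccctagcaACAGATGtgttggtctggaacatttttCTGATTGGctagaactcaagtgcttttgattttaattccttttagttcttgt
RT1-Bb: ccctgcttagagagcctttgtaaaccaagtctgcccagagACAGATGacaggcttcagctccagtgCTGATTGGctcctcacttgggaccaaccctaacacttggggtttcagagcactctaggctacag
RT1-Ba: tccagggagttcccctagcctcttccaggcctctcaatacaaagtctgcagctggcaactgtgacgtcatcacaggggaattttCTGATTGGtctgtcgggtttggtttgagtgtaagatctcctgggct
RT1-Db1: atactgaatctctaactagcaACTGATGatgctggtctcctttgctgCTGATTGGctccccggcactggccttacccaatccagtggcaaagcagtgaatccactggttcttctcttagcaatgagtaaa

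The letters CTGATTGG began 52 bases before the start in RT1-Da, 64 in RT1-Bb, 46 in RT1-Ba and 83 in RT1-Db1. The letters ACNGATG began 79 bases before it in RT1-Da, 90 in RT1-Bb and 109 in RT1-Db1, and are not in the RT1-Ba window. Both motifs were picked after these sequences had been read, and both strands were searched from 250 bases before to 50 after the start. Over 33469 rat promoters of that length, 3.50% held CTGATTGG, 10.2% held ACNGATG and 0.290% held both. Of the 10 RT1 class II genes looked up, 9 were in the table and 7 of those held CTGATTGG. Among members outside the RT1 family, Cd68 held CTGATTGG on the opposite strand, 144 bases before its start, and the windows of Cd74, C1qa, C1qb, Cd163 and Mrc1 held neither string. A match describes letters and is not a measured binding site. The lack of a match, as for ACNGATG in RT1-Ba, does not show that a box is missing.

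None of the 9 measured genes differed between exposed and sham skin in limma's test, and all 9 had a slightly lower mean in exposed animals. The median difference was -0.06 on the log2 scale, and the single differences ran from -0.23 for Cd68 to -0.04 for RT1-Da. Over all genes the median difference was -0.02, and 57.7% of genes had a negative difference. The 9 genes are not independent, since all 36 pairs of them were positively correlated over the 14 animals. In the 8 sham animals alone, 20 of the 36 pairs were positive. Adjusted p-values from limma with Benjamini-Hochberg adjustment over all genes were 0.999 for every member. No gene of the array passed an adjusted 0.05, a background of 0%, and 3.45% of genes had an unadjusted p below 0.05. None of the 9 members did. For every member the values of exposed and sham animals overlapped, whereas 0.0322% of genes on the array had groups that did not overlap. The 95% interval of the difference lay within 1.5-fold either way for 7 of 9 members, against 80.2% of all genes. The exceptions were Cd163 and Mrc1.

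**Figure D1:**
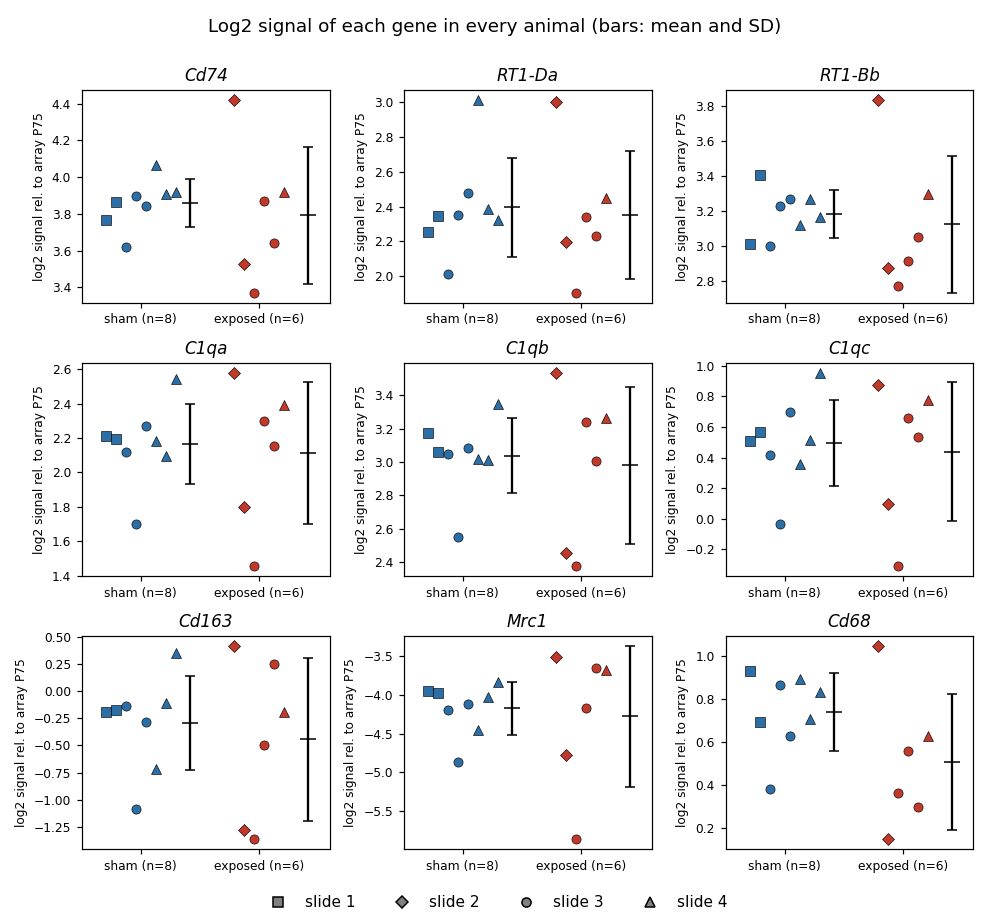
Level of the 9 measured genes in each of the 14 animals, on the y axis as log2 of signal over the array's 75th percentile, with exposed and sham animals apart and each group's mean and SD drawn. The groups overlap in every panel, and the exposed animals are spread more widely, with animal 1 high and animal 3 low.

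Levels are given as log2 of a probe's signal over its array's 75th percentile, so that 1 unit is a doubling. They place animals against each other within a gene and do not rank genes. For Cd74, the invariant chain, sham animals ran from 3.62 through a median of 3.88 to 4.06, and exposed animals from 3.37 through 3.76 to 4.42. The highest and the lowest animal of all 14 were both exposed, animal 1 and animal 3, and the sham animals lay between them. The difference was -0.07 ± 0.13 (SE), with a 95% interval of -0.36 to 0.22, and an exact two-sided permutation test of the 2 groups' means gave p = 0.661. The whole range over 14 animals was 2.07-fold.

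RT1-Da, the alpha chain gene of the DR-like class II molecule, ran from 2.01 through 2.35 to 3.01 in sham and from 1.90 through 2.28 to 3.00 in exposed animals. Sham animal 6 and exposed animal 1 were level at the top and stood clear of the others. The difference was -0.04 ± 0.16 (interval -0.40 to 0.31, exact permutation p = 0.793). RT1-Bb, the beta chain gene of the DQ-like molecule, ran from 3.00 through 3.20 to 3.41 in sham and from 2.77 through 2.98 to 3.84 in exposed animals. Exposed animal 1 was above every sham animal, and exposed animals 2, 3 and 4 were below every sham animal. The difference was -0.06 ± 0.14 (interval -0.37 to 0.25, exact permutation p = 0.736). A second RT1-Bb probe gave -0.09 and followed the first across the 14 arrays with r = 0.899.

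RT1-Ba is the alpha chain gene that partners RT1-Bb. Its probe was not well above background on any of the 14 arrays, with 4.59 to 12.5 scanner units. The dimmest probe well above background on each array read 10.8 to 18.3 units, and on the array of sham animal 1 RT1-Ba, at 12.5, was not below that array's 12.1. No fold is given for it, and the reading bounds the signal of this 1 probe rather than the level of the transcript.

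The C1q chains are 3 similar polypeptides that assemble into 1 molecule. C1qa ran from 1.70 through 2.19 to 2.55 in sham and from 1.45 through 2.23 to 2.58 in exposed animals. C1qb ran from 2.55 through 3.05 to 3.35 in sham and from 2.38 through 3.12 to 3.53 in exposed animals. C1qc ran from -0.04 through 0.51 to 0.95 in sham and from -0.31 through 0.60 to 0.88 in exposed animals. In all 3 genes the exposed group had the higher median and the lower mean, with exposed animals 2 and 3 far below the others. Exposed animals 2 and 3 were low in C1qa, at 1.80 and 1.45, and sham animal 4 was low as well, at 1.70. The differences were -0.05 ± 0.16 for C1qa, -0.06 ± 0.18 for C1qb and -0.06 ± 0.19 for C1qc, with exact permutation p-values of 0.760, 0.747 and 0.773.

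Cd163, the haemoglobin-haptoglobin scavenger receptor, ran from -1.09 through -0.18 to 0.36 in sham and from -1.37 through -0.34 to 0.42 in exposed animals. Exposed animals 2 and 3 and sham animal 4 formed the low end, at -1.28, -1.37 and -1.09. The difference was -0.15 ± 0.29 (interval -0.78 to 0.48, exact permutation p = 0.629). Mrc1, the mannose receptor, ran from -4.87 through -4.07 to -3.83 in sham and from -5.87 through -3.93 to -3.51 in exposed animals. Its signal was dim, and in exposed animal 3, the lowest, it was not well above background, so -5.87 is only a bound. The difference was -0.10 ± 0.32 (interval -0.78 to 0.58, exact permutation p = 0.773). Without exposed animal 3 the Mrc1 difference was 0.22. Cd163 ranged 3.45-fold over the 14 animals, and its SD exceeded that of 92.3% of tested genes. Mrc1 ranged 2.57-fold over the 13 arrays on which it was well above background, and over those arrays its SD exceeded that of 82.6% of genes.

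Cd68, a glycoprotein of the lysosome and endosome membrane, had the largest difference of the 9. Sham animals ran from 0.38 through 0.77 to 0.93, and exposed animals from 0.15 through 0.46 to 1.05. Exposed animal 1 was the highest of all, the other 5 exposed animals lay at 0.63 or below, and 6 of 8 sham animals lay above all of those 5. The difference was -0.23 ± 0.13, with an interval of -0.51 to 0.04 and an exact permutation p of 0.111. It was -0.22 within slide 3, -0.18 within slide 4 and -0.21 with slide as a block, and without any 1 animal it stayed between -0.34 and -0.16.

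**Figure D2:**
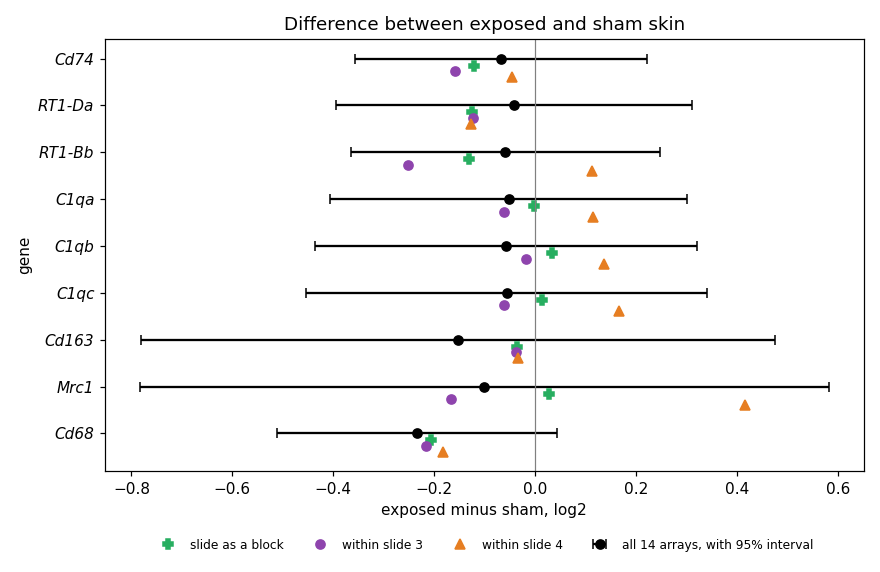
Difference between exposed and sham animals on the x axis (log2) for each gene on the y axis, as black points with 95% intervals over 14 arrays, and, without intervals, within slide 3, within slide 4 and after blocking on slide. Every interval includes 0, and Cd68 has the lowest point estimate.

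The sign of the other differences depended on single animals and on the slide. Without exposed animal 3, 8 of 9 members were higher in exposed skin, by 0.01 for RT1-Bb to 0.22 for Mrc1, and only Cd68 stayed lower. Without exposed animal 2, C1qa, C1qb, C1qc, Cd163 and Mrc1 turned positive, with C1qb at 0.05. Without sham animal 6, RT1-Da was at 0.05, and without sham animal 8 C1qa and C1qc were at 0.00162 and 0.00862. Within slide 4, where the exposed side is 1 animal, RT1-Bb, C1qa, C1qb, C1qc and Mrc1 were higher in exposed skin, by 0.11 to 0.42, and within slide 3 all 9 were lower, by 0.02 for C1qb to 0.25 for RT1-Bb.

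Levels of the members did not differ detectably between slides. With group in the model, the adjusted limma p for slide was 1.00 for each of the 9 members. No gene passed the adjusted threshold, and 2.77% of all genes and none of the members had an unadjusted p below 0.05. Cd74 averaged 3.81 on slide 1, 3.97 on slide 2, 3.71 on slide 3 and 3.95 on slide 4. Slide 2 held both exposed animal 1 at 4.42 and exposed animal 2 at 3.53, so a single slide spanned most of the range. The exposure difference was not shown to differ between slides 3 and 4, with adjusted limma p-values for the interaction of 0.991 to 1.00. Over all genes 1.56% had an unadjusted interaction p below 0.05, none of them a member, and none passed after adjustment.

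The members varied more among exposed than among sham animals. The SD was larger in the exposed group for 9 of 9 members, whereas it was larger there for 39.9% of all genes. The median ratio of the SDs was 1.78 over the members and 0.870 over all genes. The wider spread was not confined to the members, and other immune genes went both ways. RT1-Db1 had SDs of 0.361 in exposed and 0.174 in sham animals, and the lectin gene Clec10a of 0.743 and 0.259. For the complement gene C3 they were 0.224 and 0.592, and for the Fc receptor gene Fcgr3a 0.334 and 0.537. Cd74 had an SD of 0.371 in exposed and 0.129 in sham animals, a ratio of 2.87, and RT1-Bb of 0.393 and 0.139. For Mrc1 the SDs were 0.908 and 0.338, a ratio that fell to 1.54 without exposed animal 3, whose reading was not well above background. No test of the ratio was made, and since the members were correlated over all animals, above all in the exposed group, the 9 counts are not independent. Without exposed animal 1 the SD was larger in exposed animals for 8 of 9 members, with a median ratio of 1.61 and RT1-Da at 0.719. Without exposed animal 3 it was larger for 9 of 9, with a median ratio of 1.55. Without both it was larger for 8 of 9, with a median ratio of 1.38, a comparison chosen after the values were seen.

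Exposed animal 1 was the highest of 14 in 7 of 9 members and among the top 2 in all 9. Exposed animal 3 was the lowest in 8 of 9, Cd68 being the exception, and exposed animal 2 was among the lowest 3 in all 9. Slide 2 held animals 1 and 2 and slide 3 held animal 3, so the low pair was on different slides. Sham animal 4 did not follow this order. It was among the lowest 3 in C1qa, C1qb, C1qc, Cd163 and Mrc1, whereas its Cd74 at 3.90, RT1-Da at 2.35 and Cd68 at 0.87 ranked 6, 6 and 4 from the top of 14.

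All 36 pairs of measured members were positively correlated across the 14 animals. After Benjamini-Hochberg adjustment over the 36 pairs, 25 had a Pearson permutation p below 0.05 (100000 permutations, two-sided) and 13 had a Spearman one. The closest were the C1q chains. C1qa and C1qc had r = 0.982 and rho = 0.921 (adjusted permutation p = 9e-05 and 0.00018, from the smallest p that these permutations can give), and r was 0.954 without the pair of animals farthest from the C1qa median. C1qa and C1qb had r = 0.972, and C1qb and C1qc had r = 0.947. Of all other genes on the array, the closest to C1qa was C1qc and the next was C1qb, and the closest to C1qb and to C1qc was C1qa.

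Cd163 and Mrc1, the scavenger and mannose receptor genes, had r = 0.905 (rho = 0.842, adjusted permutation p = 9e-05 and 0.00252), and 0.911 without exposed animals 2 and 3. Both followed the C1q chains, with r from 0.861 to 0.920 over the 6 pairs. Leaving out the pair of animals farthest from each median lowered these to 0.742 to 0.807. Within slide 3, the 6 pairs had r from 0.809 to 0.913, and with slide and group means removed from all 14 arrays 0.862 to 0.915. By Spearman, 4 of the 6 pairs passed adjustment. Cd163 with C1qa and C1qb did not (rho = 0.560 and 0.587, adjusted permutation p = 0.0692 and 0.0605). After another background correction, the dim Mrc1 had r = 0.725, 0.772 and 0.654 with C1qa, C1qb and C1qc, and 0.724 with Cd163. Cd163 then had r from 0.850 to 0.874 with the C1q chains.

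Cd74 and RT1-Da had r = 0.893 (rho = 0.829, adjusted permutation p = 0.000103 and 0.00317), and 0.780 without exposed animals 1 and 3. For Cd74 and RT1-Bb r was 0.857 (rho = 0.701, adjusted permutation p = 0.000692 and 0.0224), and 0.581 without the same animals. RT1-Da and RT1-Bb had r = 0.699. Cd68, the lysosomal gene, varied with Cd74 at r = 0.818 (rho = 0.758, adjusted permutation p = 0.000692 and 0.0116), and at 0.817 without exposed animals 1 and 3. Its r with Cd163 was 0.380 and with Mrc1 0.367, with adjusted permutation p-values of 0.189 and 0.205.

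**Figure D3:**
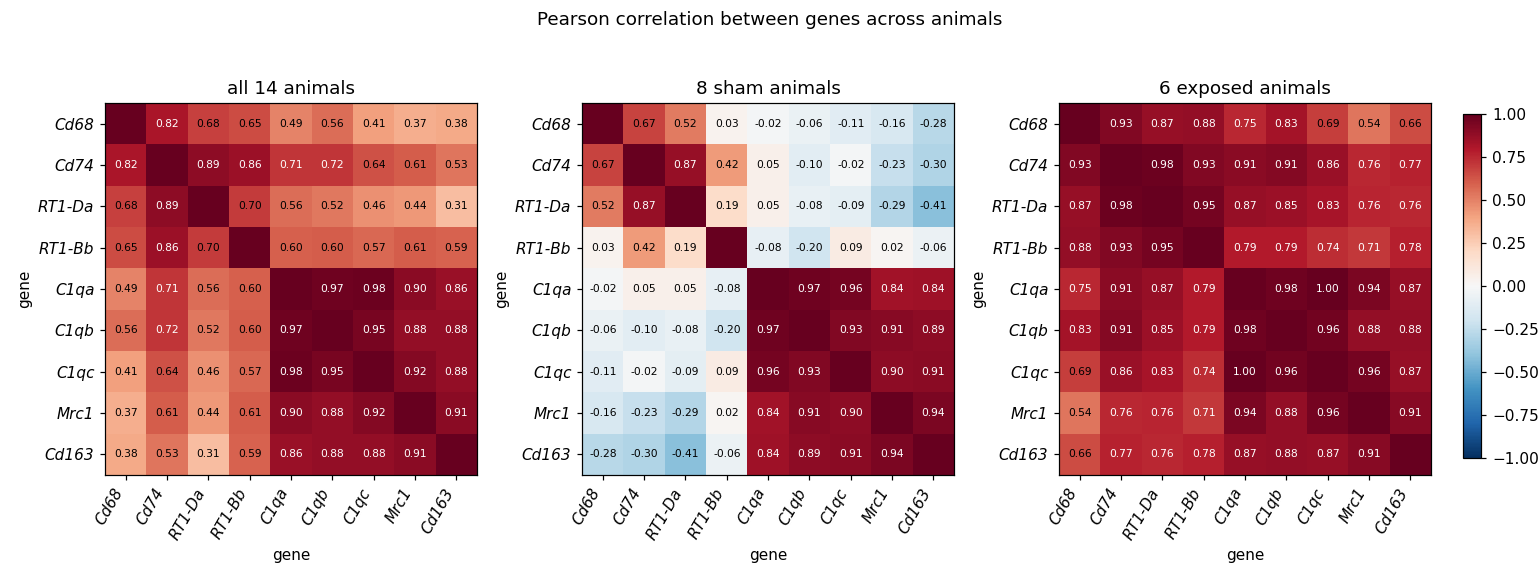
Pearson r between the 9 measured genes over all 14 animals, over the 8 sham animals and over the 6 exposed animals, with colour from -1 (blue) to 1 (red) and r printed in each cell. In sham animals the 5 genes at the bottom correlate with each other and have r from -0.414 to 0.0855 with the 4 at the top, and in exposed animals every pair has r above 0.5.

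The matrix is ordered with Cd74, RT1-Da, RT1-Bb and Cd68 apart from C1qa, C1qb, C1qc, Cd163 and Mrc1, a division drawn after the values were seen and therefore described without a test. In the 8 sham animals the 10 pairs within the C1q, Cd163 and Mrc1 set had r from 0.841 to 0.969, and the 20 pairs that cross the sets had r from -0.414 to 0.0855, with a median of -0.0868. The 6 pairs among Cd74, RT1-Da, RT1-Bb and Cd68 ran from 0.0315 for RT1-Bb and Cd68 to 0.873 for Cd74 and RT1-Da, so that these 4 genes did not all vary together in sham animals. In the 6 exposed animals the same 20 crossing pairs had r from 0.537 to 0.915. Cd74 and C1qa, for example, had r = 0.0497 in sham and 0.906 in exposed animals. Over all 14 animals this pair had r = 0.711 (rho = 0.618, adjusted permutation p = 0.0112 and 0.0503), and without exposed animals 1 and 3 r was 0.383. For this pair the pooled relation therefore rested on those animals. Whether r differed between the groups was not tested. Within the 6 animals of slide 3 the crossing pairs ran from -0.406 to 0.604, and no pair of members passed adjustment there.

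**Figure D4:**
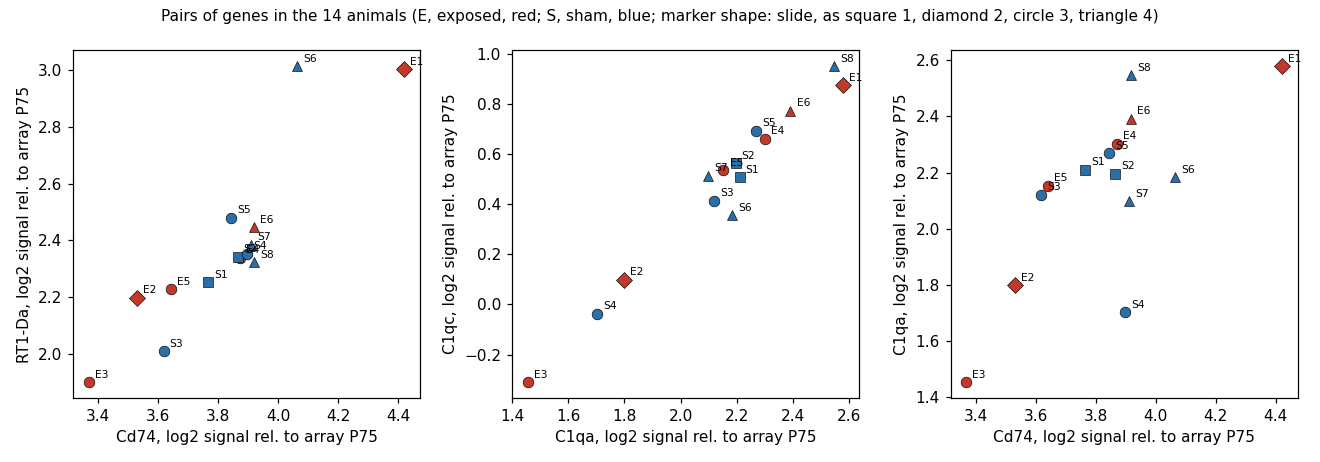
Pairs of members in each of the 14 animals, both axes in log2 of signal over the array's 75th percentile, with exposed animals in red, sham animals in blue, animals numbered and slides shown by marker shape. Cd74 and RT1-Da rise together in both groups, and C1qa and C1qc do so more tightly. In Cd74 against C1qa, exposed animals 1, 2 and 3 form the ends and sham animal 4 lies low in C1qa alone.

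Beyond the members, the gene closest to the mean of Cd74, RT1-Da and RT1-Bb was RT1-Db1, whose promoter is printed above, with r = 0.984 over 14 animals (0.950 in sham, 0.996 in exposed). It was followed by Pstpip1, an adaptor of the cytoskeleton, at 0.925, Mefv, which encodes pyrin, at 0.902, RT1-DOa, an alpha chain of the class II modulator DO, at 0.898 and Ptprc, the leukocyte marker CD45, at 0.887. Probes of near-identical class II genes can cross-hybridise, which was not tested. For RT1-DOa r was 0.463 and for Pstpip1 0.648 after another background correction. Of other genes 0.172% had r above 0.8 with this mean, and the median r was 0.0444.

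Closest to the C1q mean were Asgr2, a subunit of the asialoglycoprotein receptor, at r = 0.922, Pdpn, which encodes podoplanin, at 0.920, the immunoglobulin-like receptor gene Milr1 at 0.915, Fcna, which encodes ficolin A, at 0.909 and F13a1, the factor XIII A subunit, at 0.899. Closest to the mean of Cd163, Mrc1 and Cd68 were Ddr2, a collagen receptor, at 0.938, Milr1 at 0.924, Asgr2 at 0.914, Fcna at 0.909 and the lectin gene Clec10a at 0.899. Asgr2, Milr1 and Fcna are in both rows, and the means they were set against share animals and arrays. Of other genes, 0.355% and 0.468% had r above 0.8 with these means. In the mean of Cd163, Mrc1 and Cd68, values were centred but not scaled. Cd68, with an SD of 0.266 over the animals, therefore weighed less in it than Cd163 at 0.571 and Mrc1 at 0.618. That mean includes the Mrc1 reading of exposed animal 3, which was not well above background.

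Markers of some other cell types moved with the members across animals, as descriptions over the same 14 arrays. The mean of the 6 dendritic and Langerhans cell genes had r = 0.7775 with the class II mean. With the C1q mean its r was 0.855, and with that of Cd163, Mrc1 and Cd68 0.890. Without the pair of animals farthest from that list's median these were 0.356, 0.710 and 0.757. The mean of the 6 fibroblast genes had r = 0.7995 with the C1q mean and 0.818 with that of Cd163, Mrc1 and Cd68. Without exposed animal 3 and sham animal 4, the pair farthest from the fibroblast median, r was 0.484 and 0.552. The 5 mast cell genes had r = 0.785 and 0.822 with the same means. Their farthest pair was a different one, exposed animal 1 and sham animal 8, and without it r was 0.668 and 0.758. With the class II mean the 8 T cell genes had r = 0.644 and the 4 adipocyte genes r = -0.653. Without the pair of animals farthest from each list's own median these were 0.530 and -0.730. The muscle genes, which varied most among the lists, had r between -0.259 and -0.142 with the 3 means, and the log2 scaling percentile of the arrays between -0.113 and 0.399. Keratinocyte genes had r between -0.1905 and 0.155 with the 3 means, and endothelial genes between -0.346 and 0.0421. For the 1 B cell gene r was between -0.146 and 0.0843, and for the 2 neutrophil genes between -0.4765 and -0.313. The adipocyte genes had r = -0.074 with the C1q mean and -0.145 with that of Cd163, Mrc1 and Cd68. The part of these cell types in the members' values was not tested.

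The wider class II pathway showed as little change. Of 20 listed genes, 17 were measured, with 8 higher and 9 lower in exposed skin, a median difference of -0.03 and no unadjusted limma p below 0.05, against 3.45% of all genes. Here and in the next lists the 3 genes named are those with the smallest p, so their p-values are low by choice. Nfya, a subunit of the factor NF-Y that binds the Y box, was at 0.24 ± 0.15 (exact permutation p = 0.125). Ctss, the protease that trims the invariant chain, was at -0.17 ± 0.15 and RT1-DMb, a chain of the peptide exchange factor DM, at 0.12 ± 0.11, with exact permutation p-values of 0.353 and 0.323. Of 13 dendritic and Langerhans cell genes 6 were measured, 3 higher and 3 lower, and the named ones were Cd1d1 at 0.13, the transcription factor gene Irf8, not well above background on 1 array, at -0.10 and Clec10a at 0.08, with exact permutation p-values of 0.474, 0.5002 and 0.794. Clec10a was at -0.14 without exposed animal 1 and at -0.00416 without sham animal 4. No probe was matched to Cd207, Itgax or Flt3, and Xcr1, Clec9a, Zbtb46 and Irf4 were not measured. The list therefore covers these cells only in part.

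Of 36 other macrophage and myeloid genes, 31 were measured, with 25 lower and 6 higher in exposed skin, where 57.7% of all genes were lower. The median difference was -0.11 against -0.02 over all genes, and 1 of the 31 had an unadjusted limma p below 0.05, against 3.45% of all genes. Of the markers of other skin tissues, none had an unadjusted limma p below 0.05 in the same comparison. The 5 skeletal muscle, 5 hair follicle and 4 adipocyte genes were all higher in exposed skin, with medians of 1.35, 0.73 and 0.27. The 4 keratinocyte and 4 endothelial genes were all lower, as were 5 of 6 fibroblast genes, with medians of -0.07, -0.11 and -0.12. Their part in the values of the macrophage and complement lists was not tested. Gpnmb, a glycoprotein of lipid-laden macrophages and pigment cells, was the gene below 0.05, at -0.40 ± 0.14 (exact permutation p = 0.0240, adjusted limma p = 0.999). It was at -0.48 within slide 3 and at 0.11 within slide 4, which holds 1 exposed animal. With slide as a block it was at -0.29, and its unadjusted limma p was no longer below 0.05. With single animals left out that p was below 0.05 in 14 of 14 cases. Fcgr3a, an Fc receptor gene, was at -0.45 ± 0.23 (exact permutation p = 0.0819), but at 0.14 within slide 3 and -0.17 after the normexp background correction, and on 2 arrays it was not well above background. Without sham animal 8 it was at -0.30. Ctsd, the lysosomal protease cathepsin D, was at -0.14 ± 0.08 (exact permutation p = 0.0733), and at -0.07 within slide 3. Of 8 measured activation genes such as cytokines, 3 were higher and 5 lower, with none below an unadjusted 0.05, against 3.45% of all genes.

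In the complement list, apart from C1q, 11 of 14 genes were measured, and 10 of the 11 were lower in exposed skin, with a median of -0.25, against 57.7% lower and a median of -0.02 over all genes. C3, the central component, was at -0.53 ± 0.24 (exact permutation p = 0.0533, adjusted limma p = 0.999). It was the only 1 of the 11 with an unadjusted limma p below 0.05, against 3.45% of all genes. That p was lost with the normexp correction, at -0.33, and with slide as a block, at -0.39, and within slide 3 the difference was -0.22. With single animals left out it was below 0.05 in 5 of 14 cases, those without exposed animals 3 or 5 or sham animals 3, 5 or 8. Serping1, the inhibitor of C1, was at -0.22 ± 0.11 and C4a at -0.31 ± 0.18, with exact permutation p-values of 0.0586 and 0.132, and within slide 3 they were at -0.10 and -0.03. Without exposed animal 3 C4a was at -0.45. No gene of any list passed the adjusted threshold. Of 9 measured genes of MHC class I and the interferon response, 2 were higher and 7 lower, with a median of -0.08.

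**Figure D5:**
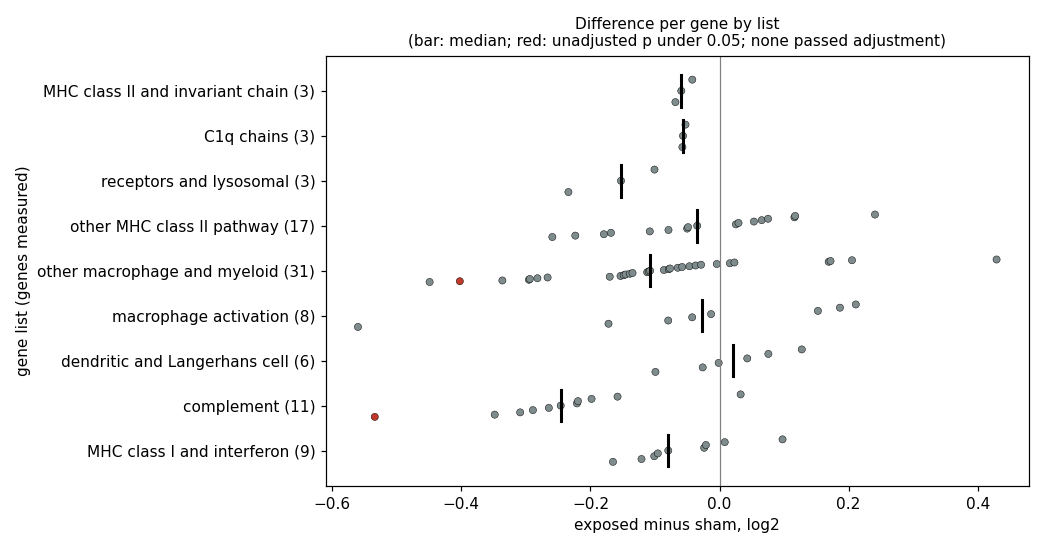
Difference between exposed and sham skin on the x axis (log2) for each measured gene of 9 lists on the y axis, with the median of each list as a bar and genes with an unadjusted limma p below 0.05 in red. The 10 lower complement genes lie left of 0, Gpnmb and C3 are the red points, and the members lie between -0.23 (Cd68) and -0.04 (RT1-Da).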

How the data were processed

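Skin RNA of 14 rats was measured on 1-colour Agilent arrays. Per the file headers, each deposited scanner file gives linear spot intensity from Agilent Feature Extraction 10.7.3.1, which subtracted background and did not scale arrays to each other. A table deposited by the authors gives log2 values for 15168 probes, each centred on its median, with column medians from -0.0086 to 0.012. Its normalization was not given in the sources used here, and its scale and direction were set by its correlation of 0.998 to 0.999 with quantile-normalized scanner values.

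Groups were taken from the treatment label. Control and outlier spots were left out, log2 signal was reduced by each array's 75th percentile, spots of a probe were averaged, and of several probes the brightest kept one stood for the gene. Accessions named 59.3% of 30367 probes, and 21014 probes were kept. Genes were tested with limma 3.58.1 in R 4.3.3 (two-sided, Benjamini-Hochberg), and the scripts were tested on simulated data. For each named gene the group means were also compared by an exact permutation test over 3003 regroupings, added after the data were seen. The number of arrays limits the precision.

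The text names all members, the 3 genes with the smallest p in each of 4 lists, and the 5 genes closest to each of 3 member means. Members and lists were chosen with earlier results of these data known. Alternatives were quantile normalization, normexp background correction (offset 50, on median spot signals), the filter, spot flags, probe choice, array weights, trend and robust variance, slide as a block, single slides, the authors' values and leaving out each animal.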

Additional observations from a re-analysis of the deposited data

Results flagged for a closer look

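Within the groups of 6 and 8 animals, 2 values among the 9 measured members stood apart from the rest of their group by Dixon's criterion. Of 18 groups tested, chance alone would mark about 1 in 20. RT1-Da in sham animal 6 was the highest of the sham group at 3.01, and exposed animal 1 had a like value. C1qb in sham animal 4 was the lowest of its group at 2.55, and C1qa, C1qc, Cd163 and Mrc1 were the lowest of the sham group in the same animal.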

How the results depend on the processing

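No gene passed the adjusted limma threshold for exposed against sham skin in any of the settings tried, and unadjusted p-values below 0.05 numbered 290 to 2555. The median difference over the 9 members was -0.19 to 0.05 when single animals were left out, -0.12 within slide 3, 0.11 within slide 4 and 0.05 with array weights. Signs turned for Mrc1 with normexp (0.0110), with array weights for Cd74 (0.0497), RT1-Da (0.139), C1qa (0.0636), C1qb (0.0551), C1qc (0.0505), Mrc1 (0.0262) and Cd1d1 (-0.0140), and with slide as a fixed block for C1qb (0.0326), C1qc (0.0141) and Mrc1 (0.0277). They also turned within slide 3 for Fcgr3a (0.14), and within slide 4 for RT1-Bb (0.11), C1qa (0.12), C1qb (0.14), C1qc (0.17), Mrc1 (0.42), Gpnmb (0.11) and Ctss (0.11). With single animals left out, differences ran from -0.19 to 0.0162 for Cd74, -0.17 to 0.0480 for RT1-Da, -0.20 to 0.0118 for RT1-Bb, -0.15 to 0.0789 for C1qa, -0.17 to 0.0629 for C1qb, -0.14 to 0.0934 for C1qc, -0.33 to 0.0316 for Cd163, -0.25 to 0.22 for Mrc1 and -0.14 to 0.28 for Clec10a. The causes were not tested. The interaction of exposure and slide was called for 0 genes in the main setting and for 2, Dcps and a transcript without a symbol, under quantile normalization, the authors' values and array weights. Slide differences were called for 0 genes, for 1 without the filter, and for 0 to 2 with single animals left out (2 without sham animal 2), none a member. Of 36 pairs, 25 passed adjustment over 14 animals, 28 under quantile normalization, 28 under normexp, 22 with slide and group means removed, and 22 of 28 in the authors' values, which lack Mrc1. The count was 9 in sham animals, 15 in exposed animals, 0 within slide 3 and 14 without the pair of farthest animals, where fewer animals enter. The permutation with slide and group means removed treated the remaining values as independent, which they are not. Its p-values can be too small, and its count is not comparable with the 25. Signal not well above background limits RT1-Ba on all 14 arrays, Fcgr3a on 2 and Mrc1 and Irf8 on 1 each. No paired analysis was possible because the labels give the animals no shared replicate numbers and do not say which animals shared a cage.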
